A study of Mus musculus with 6 samples.

Results

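The genes described here are 10 enzymes and regulators known from T cell anergy: the diacylglycerol kinases Dgka, Dgkd and Dgkz, the Ras activator Rasgrp1, the ubiquitin ligases Cbl, Cblb, Itch, Rnf128 and Nedd4, and Ndrg1. They were found by their platform gene symbol, which gave 31 of the 45037 probe sets that are no controls. Ndrg1 had 5 probe sets, Dgkd, Rasgrp1 and Itch had 4 each, Cbl, Cblb and Nedd4 had 3, Dgkz and Rnf128 had 2, and Dgka had 1. The RNA came from double negative thymocytes, precursors early in T cell development that lack CD4 and CD8, which the labels describe as sorted by flow cytometry. By their labels, 3 arrays came from double knockouts of Egr1 and Egr3, genes of zinc finger transcription factors induced by antigen receptor signals, and 3 from wild type mice, with 1 animal for each array. With all 6 arrays, the values of the targeted genes, given below, did not show their loss. The titles name whole thymus instead of sorted cells. No source used here gives the strain, age or sex of the mice, or how the genes were disrupted. The comparison asks how transcripts differ between the genotypes at this stage.

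A T cell antigen receptor that is engaged makes diacylglycerol at the membrane, where it recruits RASGRP1, a nucleotide exchange factor that loads RAS with GTP and so starts the ERK kinase cascade. Diacylglycerol kinases end this signal by phosphorylating diacylglycerol to phosphatidic acid. The ubiquitin ligases act further up and down the same pathway by marking receptor chains, kinases, adaptors and transcription factors for removal. In T cells stimulated without costimulation, diacylglycerol kinases and several of these ligases are known to be raised and to keep the cells unresponsive, a state called anergy, and EGR2 and EGR3 are known to promote it.

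Several features of the arrays touch these genes. Egr1 rose on the arrays labelled double knockout (limma adjusted p = 0.00371), with 1757, 1696 and 1221, whereas wild type arrays read 508, 509 and 455. Its probe set could not be placed relative to the disrupted part, so directions below are those of the labels. Neither Egr3 probe set passed the test with all 6 arrays. The brighter one read 34.4, 45.8 and 32.9 on the arrays labelled double knockout and 92.2, 83.1 and 30.8 on the wild type arrays (change -0.59). Without wild type replicate 3 its change was -0.98 (SE 0.25), and it was called lower (limma adjusted p = 0.023, over genes). The other read 12.5, 32.1 and 55.5 on the arrays labelled double knockout and 34.2, 30.5 and 30.5 on the wild type arrays (change -0.07). Wild type replicate 3 stood apart: granulocyte and monocyte markers summed to 18647 to 25965 on the arrays labelled double knockout, to 11852 and 25036 on wild type replicates 1 and 2, and to 1158 on wild type replicate 3. Erythroid markers summed to 287 to 377 on the arrays labelled double knockout, to 299 and 40 on wild type replicates 1 and 2, and to 3238 on wild type replicate 3. That last sum was nearly all Alas2, at 3142. Klf1 read 46.3 on wild type replicate 3 and 21.7 to 56.9 on the other arrays, and Car1 lay under the brightest control on all arrays. Transcripts of Xist, made from the inactive X chromosome of females, and of the Y-linked gene Eif2s3y were both well above the bacterial controls on each array labelled double knockout (3910 to 6015 for Xist, 186 to 265 for Eif2s3y) and on wild type replicate 1 (1439 for Xist, 476 for Eif2s3y). On wild type replicates 2 and 3, Xist read 3977 and 5311, while Eif2s3y read 13.2 and 0.62, under the brightest control. The Y-linked genes Kdm5d and Uty, on their probe sets of highest mean, were well above the controls on wild type replicate 1 (144 and 63.7). On the arrays labelled double knockout they lay near or under the brightest control, with 17.5, 29.5 and 10.3 for Kdm5d and 11.4, 11.6 and 23.4 for Uty. Whether each array with both Xist and Eif2s3y holds RNA of 1 animal was not tested. These readings thus differ between the groups and among the wild type arrays, and the part of sex in the changes below was not tested. Of the genes that such a sort selects against, Cd4 lay under the brightest bacterial control on the 6 arrays. Cd8a read 68.5 to 86.0 on the arrays labelled double knockout and 82.9 to 197 on the wild type arrays, and Cd8b1 read 65.9 to 137 on the arrays labelled double knockout and 70.4 to 119 on the wild type arrays, above the controls. The list of early thymocyte markers, which also holds these 3 genes, had a sum of 19505 to 20846 on the arrays labelled double knockout and 31623 to 39822 on the wild type arrays, with 3 of 10 tested genes lower (Ptcra, Il2ra and Dntt) and none higher.

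Values below are intensities as deposited, on arrays that share a trimmed mean of 150. The brightest of 27 control probe sets for bacterial genes read 19.0 to 29.9 on the 6 arrays, which marks the upper end of these controls. Their median read 2.95 to 5.47. A change is the mean of log2(intensity + 16), each array centred on its median, on arrays labelled double knockout minus that on wild type arrays, and it understates the change of dim probe sets. It was tested with limma over 27022 probe sets, and a probe set was called at a Benjamini-Hochberg adjusted p under 0.05. Of the 31 probe sets, 28 were bright enough to be tested and 17 of those lay above the brightest control on all 6 arrays. Dgka was the 1 probe set called, where 5.03% of all probe sets tested were called, 2.91% higher and 2.11% lower. The groups did not overlap in 8 of the 28, with the arrays labelled double knockout above in 5 and below in 3. Over all probe sets tested this was 24.3%, with 13.2% above and 11% below, and an unadjusted p under 0.05 was found for 9, against 18.8%. The median change of the 28 was 0.33, with 18 above and 10 below 0, and the median over all probe sets tested was 0.0025. The counts of calls and of groups without overlap were thus near what the whole array gave. The count with an unadjusted p under 0.05 (9 of 28) and the median change lay above it, and whether the members differ as a set was not tested.

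**Figure D1:**
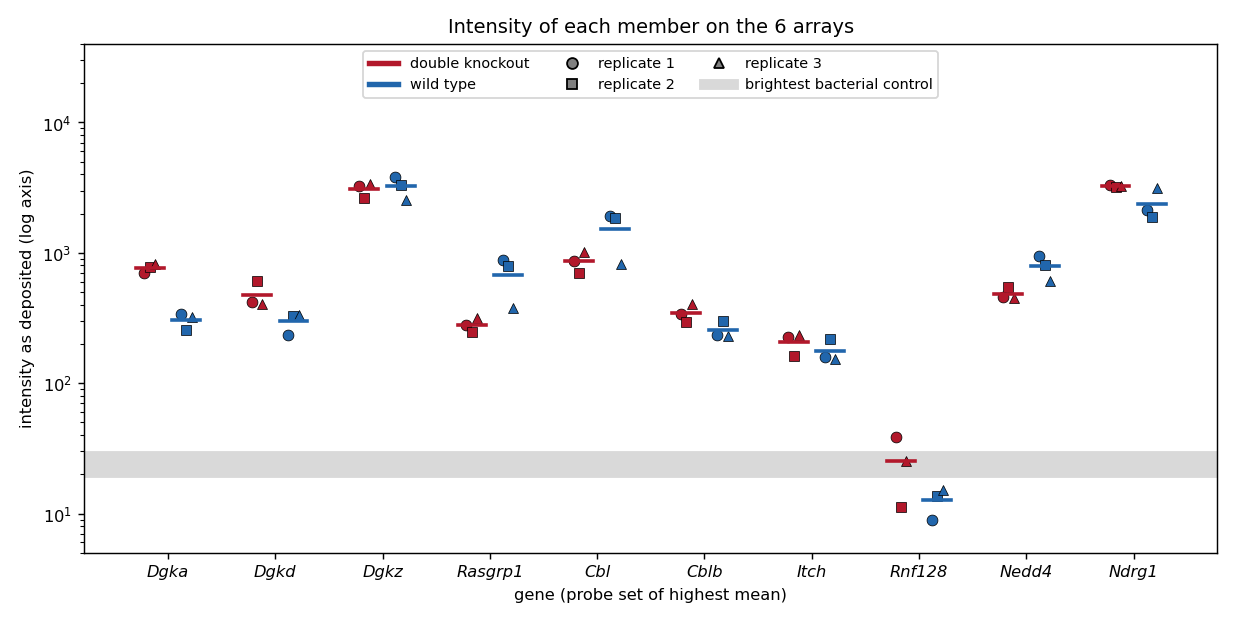
Intensity as deposited (log axis) on the 6 arrays for the probe set of highest mean of each gene, with arrays labelled double knockout in red to the left of wild type arrays in blue, symbols for replicate numbers, bars for group means and a grey band for the brightest bacterial control (19.0 to 29.9). Dgka is higher on all 3 arrays labelled double knockout, wild type replicate 3 lies away from the other wild type arrays for Rasgrp1, Cbl and Ndrg1, and Rnf128 lies near or under the brightest control.

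Dgka, the calcium-responsive diacylglycerol kinase that resting T cells are known to carry, rose in the arrays labelled double knockout. Its probe set 1418578_at read 695, 779 and 815 on the arrays labelled double knockout, against 342, 254 and 320 on the wild type arrays. All 3 arrays labelled double knockout were well above all 3 wild type arrays. The means were 763 ± 61.8 on the arrays labelled double knockout and 306 ± 45.7 on the wild type arrays (SD, n = 3 each), a ratio of 2.50. The log2 change was 1.27 (SE 0.23, 95% interval 0.76 to 1.77, limma adjusted p = 0.00922). With 1 array left out the change stayed between 1.18 and 1.33, but it was no longer called without double knockout replicate 1 (adjusted p = 0.0699) or without double knockout replicate 3 (adjusted p = 0.0501). In RNA of a cell population, more cells of a type and more transcript per cell cannot be told apart. Markers of mature T cells moved the same way: 3 of 5 tested genes rose (Klf2, Il7r and Ms4a4b), none fell, and the sum over 6 named genes was 4662 to 4826 on the arrays labelled double knockout and 1362 to 1798 on the wild type arrays. Ccr7 and Cd44, also tested from this list, were not called, and the egress receptor gene S1pr1 lay under the brightest control on all arrays. Cd4 lay under it as well, while Cd8a and Cd8b1 lay above it on all 6 arrays. The labels describe a sort for cells without CD4 and CD8, and the titles name whole thymus. The part of mature T cells in the Dgka value was not tested.

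Because Dgka is the called gene, the stretches before its first and its last start site in RefSeq (build GRCm38.p6) are shown. The table gives 4 starts for Dgka. Each window holds the 250 bases before the start, 5′ to 3′ on the strand of the gene, and capitals mark a match to 1 of 3 motifs searched on both strands: GCGNGGGCG for EGR factors, GTAAACA for FOXO factors and CACGTG, the E-box of MYC.
Dgka first start, chr10:128745085-128745334, minus strand: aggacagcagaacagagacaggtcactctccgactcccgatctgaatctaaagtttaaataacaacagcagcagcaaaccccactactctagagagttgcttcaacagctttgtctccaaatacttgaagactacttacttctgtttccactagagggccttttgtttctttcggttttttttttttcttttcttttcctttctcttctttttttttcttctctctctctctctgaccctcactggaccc
Dgka last start, chr10:128737613-128737862, minus strand: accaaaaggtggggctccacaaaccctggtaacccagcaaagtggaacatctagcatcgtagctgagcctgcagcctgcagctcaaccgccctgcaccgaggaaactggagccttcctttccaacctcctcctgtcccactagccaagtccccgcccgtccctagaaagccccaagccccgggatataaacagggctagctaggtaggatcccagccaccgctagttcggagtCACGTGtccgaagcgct
None of the 4 Dgka windows had a match to the EGR or the FOXO motif. The last start had an E-box whose first base lay 17 bases before the start, and 6.02% of 32851 windows in the table had an E-box. These are letters in a window and say nothing of binding, and no coordinates of the probe sets were used.

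Dgkd, a diacylglycerol kinase with a pleckstrin homology domain, had its brightest probe set 1433564_at at 417, 606 and 404 on the arrays labelled double knockout, against 232, 327 and 336 on the wild type arrays. All 3 arrays labelled double knockout were above all 3 wild type arrays. The change was 0.62 (SE 0.26, 95% interval 0.04 to 1.20) and did not pass the test (limma adjusted p = 0.23). A dimmer probe set, 1454655_at, had a change of 0.70 (SE 0.31, adjusted p = 0.246), with 47.9, 50.9 and 25.5 on the arrays labelled double knockout and 9.76, 28.2 and 18.8 on the wild type arrays, where the groups overlapped. Another, 1439873_at, gave 0.29 (SE 0.33), and the fourth lay under 3.2 on all arrays and was not tested. Dgkz, the kinase known to dominate the control of diacylglycerol under the T cell receptor, was bright and showed no difference beyond the spread. It read 3267, 2651 and 3344 on the arrays labelled double knockout and 3802, 3323 and 2562 on the wild type arrays, and the groups overlapped widely. The change was -0.07 (SE 0.22) with a 95% interval of -0.56 to 0.42 (limma adjusted p = 0.906). Its dimmer probe set gave -0.08 (SE 0.33, 95% interval -0.81 to 0.65).

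Rasgrp1, which diacylglycerol recruits and which thymocytes need for RAS activation, read lower on its single bright probe set, without passing the test. Probe set 1434295_at read 280, 247 and 314 on the arrays labelled double knockout, against 877, 793 and 375 on the wild type arrays. The groups did not overlap, but wild type replicate 3 lay nearer to the arrays labelled double knockout than to the other wild type arrays. The means were 280.3 ± 33.7 on the arrays labelled double knockout and 681 ± 269 on the wild type arrays (SD, n = 3 each), and the change was -1.17 (SE 0.32, 95% interval -1.88 to -0.47, limma adjusted p = 0.0609). Without wild type replicate 3 the change was -1.55 (SE 0.24) and was called (adjusted p = 0.00183), and without any other array the adjusted p lay between 0.122 and 0.214. The remaining probe sets of Rasgrp1 had group means of 14.1 to 23.9, within or under the range of the brightest bacterial control, and changes between -0.40 and 0.35. Of the early thymocyte markers given above, 3 of 10 tested were also lower (Ptcra, Il2ra and Dntt), and their part in the readings of Rasgrp1, Cbl and Nedd4 was not tested. The promoter of Rasgrp1 is shown as that of the gene with the largest lower reading.
Rasgrp1, chr2:117342878-117343127, minus strand: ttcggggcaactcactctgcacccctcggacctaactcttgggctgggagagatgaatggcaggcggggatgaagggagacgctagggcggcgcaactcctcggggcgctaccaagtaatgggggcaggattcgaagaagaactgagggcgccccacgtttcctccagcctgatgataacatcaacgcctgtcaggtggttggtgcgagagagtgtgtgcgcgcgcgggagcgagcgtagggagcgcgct
It held no match to any of the 3 motifs.

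Of the ubiquitin ligases, Cbl and Nedd4 read lower on their brightest probe sets and neither passed the test. Cbl encodes c-CBL, the RING ligase that limits receptor and kinase levels in thymocytes. Its probe set 1434829_at read 873, 701 and 1014 on the arrays labelled double knockout, against 1917, 1838 and 828 on the wild type arrays. Wild type replicate 3 lay inside the range of the arrays labelled double knockout, while the other wild type arrays lay well above it. The change was -0.75 (SE 0.33, 95% interval -1.47 to -0.04, limma adjusted p = 0.241). Without wild type replicate 3 it was -1.15 (SE 0.23, adjusted p = 0.00879), and it was not called without any other array (adjusted p between 0.28 and 0.526). A dim Cbl probe set, 1455886_at, gave 0.43 (SE 0.43), and -0.13 without wild type replicate 3, which read 1.82 there.

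Nedd4 encodes the founding HECT ligase of its family, which in mouse T cells is known to target CBL-B and to favour activation. Probe set 1451109_a_at read 457, 543 and 454 on the arrays labelled double knockout, against 951, 803 and 609 on the wild type arrays. The groups did not overlap, and wild type replicate 3 was again the lowest of its group. The change was -0.68 (SE 0.25, 95% interval -1.22 to -0.14, limma adjusted p = 0.15), and it was called without wild type replicate 3 (-0.86, SE 0.23, adjusted p = 0.0299). A second bright probe set, 1450431_a_at, did not show the same pattern, with 336, 661 and 331 on the arrays labelled double knockout and 526, 494 and 415 on the wild type arrays (change -0.19, SE 0.29, adjusted p = 0.78). The third gave -0.39 (SE 0.37). Cbl and Nedd4 were the 2 of 8 genes with a promoter window that held a match to the EGR motif, in their first or only window, and these are shown for that reason.
Cbl, chr9:44234047-44234296, minus strand: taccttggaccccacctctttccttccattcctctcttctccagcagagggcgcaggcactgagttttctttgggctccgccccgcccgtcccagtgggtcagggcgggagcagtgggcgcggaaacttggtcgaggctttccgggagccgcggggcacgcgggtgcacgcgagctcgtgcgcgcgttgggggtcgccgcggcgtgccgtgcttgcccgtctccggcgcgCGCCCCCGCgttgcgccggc
Nedd4 first start, chr9:72662081-72662330, plus strand: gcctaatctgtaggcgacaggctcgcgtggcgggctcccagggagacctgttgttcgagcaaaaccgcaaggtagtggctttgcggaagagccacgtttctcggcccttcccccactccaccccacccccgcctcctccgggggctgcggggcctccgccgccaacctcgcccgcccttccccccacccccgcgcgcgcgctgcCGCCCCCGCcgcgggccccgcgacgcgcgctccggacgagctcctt
The capitals mark the EGR motif on the opposite strand, with the first base 20 bases before the start in Cbl and 46 in Nedd4. An EGR match on either strand was present in 4.7% of all windows and in 2 of the 13 windows of these genes. A FOXO match, present in 3.17% of all windows, was found in none of the 13. Itch and Ndrg1 had no window in the table.

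Cblb, the ligase of the same family that sets the need for costimulation in mature T cells, gave probe sets that pointed apart. Its probe set 1437304_at read 342, 295 and 405 on the arrays labelled double knockout and 234, 301 and 229 on the wild type arrays, a change of 0.41 (SE 0.26, 95% interval -0.15 to 0.96, limma adjusted p = 0.438). Probe set 1458469_at gave 0.52 (SE 0.28, adjusted p = 0.351), whereas 1455082_at gave -0.32 (SE 0.24, adjusted p = 0.531), with 142, 186 and 161 on the arrays labelled double knockout and 228, 210 and 175 on the wild type arrays. The groups overlapped on all 3 probe sets. No common direction was shown for Cblb.

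Itch, the HECT ligase known to degrade JUNB, and Rnf128, the transmembrane ligase GRAIL, did not differ beyond the spread. The brightest Itch probe set, 1415769_at, read 225, 161 and 234 on the arrays labelled double knockout and 159, 219 and 153 on the wild type arrays. Groups overlapped, and the change was 0.19 (SE 0.27, 95% interval -0.40 to 0.78, limma adjusted p = 0.774). Dimmer Itch probe sets gave 0.31 (SE 0.27) and 0.38 (SE 0.29), and the remaining probe set lay under the intensity filter. Rnf128 read 38.7, 11.2 and 25.5 on the arrays labelled double knockout and 8.97, 13.6 and 15.2 on the wild type arrays on probe set 1449036_at. Of these 6 values 1 lay above the brightest control of its array, and no difference in Rnf128 was established at this signal. Its change was 0.46 (SE 0.33, 95% interval -0.26 to 1.17, adjusted p = 0.509), and the other probe set gave 0.32 (SE 0.31). Rnf128 lies on the X chromosome in the RefSeq table, which the Xist and Eif2s3y readings above touch.

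**Figure D2:**
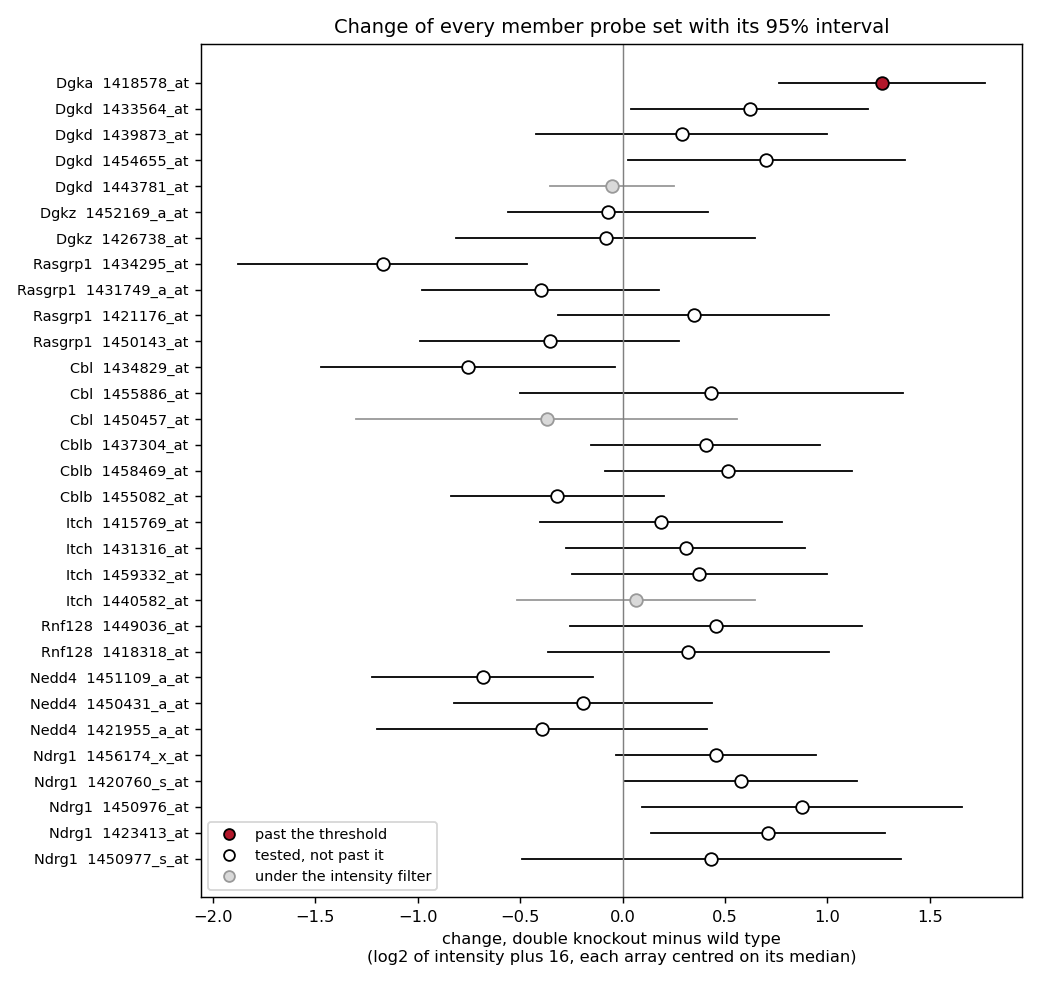
Change (arrays labelled double knockout minus wild type, log2 of intensity plus 16) of each of the 31 probe sets, with its 95% interval from limma as a bar, filled red where called and grey for the 3 probe sets under the intensity filter, which come from the fit without it. Dgka, at 1.27, is the filled point, Rasgrp1 1434295_at lies at -1.17, and the 5 Ndrg1 probe sets all lie above 0.

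Ndrg1, a cytoplasmic protein known as a factor that keeps T cells in anergy and as a substrate of the kinase SGK1, read higher on each of its 5 probe sets, none of which passed the test. These probe sets share a target and are not independent. The brightest, 1456174_x_at, of a kind marked as reading several sequences, read 3319, 3190 and 3235 on the arrays labelled double knockout, against 2147, 1899 and 3119 on the wild type arrays. Wild type replicate 3 lay just under the arrays labelled double knockout. The change was 0.46 (SE 0.22, 95% interval -0.03 to 0.94, limma adjusted p = 0.305). Probe set 1450976_at read 227, 232 and 247 on the arrays labelled double knockout, against 62.0, 116 and 224 on the wild type arrays, with a change of 0.88 (SE 0.36, adjusted p = 0.207). For 1420760_s_at the change was 0.58 (SE 0.26, adjusted p = 0.258), for 1423413_at it was 0.71 (SE 0.26, adjusted p = 0.16), and for the dim 1450977_s_at it was 0.43 (SE 0.42). Without wild type replicate 3, the 4 brighter probe sets were called, at 0.65 (adjusted p = 0.0469), 1.28 (adjusted p = 0.0142), 0.85 (adjusted p = 0.0211) and 0.89 (adjusted p = 0.0493) in the order above. Without any other array they were not called, with adjusted p between 0.246 and 0.607.

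Leaving out wild type replicate 3 changed the call of 7 of the 28 probe sets tested, in 4 of the 10 genes. On the brightest probe set of each gene it was the lowest wild type array for Dgkz, Rasgrp1, Cbl, Cblb, Itch and Nedd4 and the highest for Dgkd, Rnf128 and Ndrg1. For Cblb and Itch this put it on the side away from the arrays labelled double knockout. It lay nearer to the double knockout mean than to that of the other wild type arrays in 16 of the 28 probe sets tested, against 52% of all probe sets tested. For wild type replicate 1 this held in 5 of 28 (40% of all) and for wild type replicate 2 in 9 of 28 (42.1% of all). Leaving wild type replicate 3 out gave 8 called probe sets of 28, with 5 higher (Dgka and 4 of Ndrg1) and 3 lower (Rasgrp1, Cbl and Nedd4), where 10.2% of all probe sets tested were called. Leaving out another array gave 1 called without wild type replicate 1 (2.64% of all), wild type replicate 2 (2.59%) or double knockout replicate 2 (2.26%). It gave 0 called without double knockout replicate 1 (1.39%) or double knockout replicate 3 (2.57%), and Dgka, at an adjusted p of 0.0699 and 0.0501 there, was the call lost. With wild type replicate 3 left out, 2 wild type arrays remained. Dgka was called with and without it. The parts of the granulocyte and monocyte transcripts and of Alas2 in these differences among wild type arrays were not tested.

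**Figure D3:**
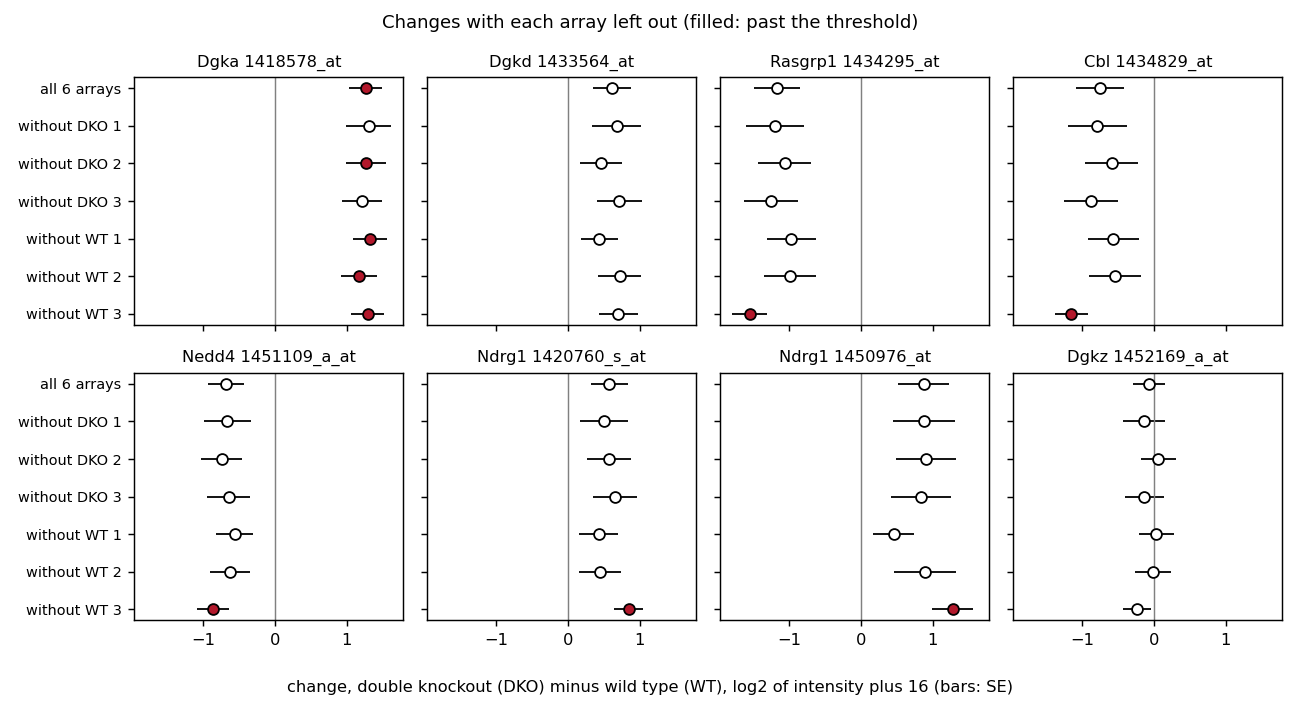
Change (arrays labelled double knockout, DKO, minus wild type, WT, log2 of intensity plus 16, bars for SE) with all 6 arrays and with each array left out, for 8 probe sets, filled where called. Rasgrp1, Cbl, Nedd4 and both Ndrg1 probe sets are filled only in the row without wild type replicate 3, Dgka is open without double knockout replicates 1 and 3, and Dgkz and Dgkd have no filled point.

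The genes around these enzymes were read at 1 probe set for each gene, the brightest, over 13187 genes, of which 6.98% were called, 4.14% higher and 2.84% lower. Of 102 tested genes in 7 lists, 15 were called higher and none lower in the arrays labelled double knockout. The median change was 0.26, against -0.01 over all genes tested. The lists were chosen with earlier results of these data known, and whether they differ as sets was not tested. None of 3 further diacylglycerol kinases passed: Dgke had a change of -0.58 (SE 0.29) and Dgkh of 0.14 (SE 0.27). In the list of diacylglycerol production and RAS to ERK signalling, 1 of 22 genes rose and none fell (median 0.10). This was Rasa3, a GTPase activating protein that switches RAS off, which read 299, 465 and 271 on the arrays labelled double knockout and 125, 166 and 111 on the wild type arrays (change 1.23, SE 0.27, limma adjusted p = 0.0228). Among 11 other ligases of the CBL, NEDD4 and GRAIL-like families, Smurf2, a HECT ligase of TGF-beta receptors and SMADs, rose by 1.09 (SE 0.26, adjusted p = 0.03) and none fell (median 0.34). Dimmer Smurf2 probe sets gave 0.57 and -0.08, and neither was called.

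Partners and regulators of the ligases held more of the calls, with 5 of 17 higher and none lower (median 0.34). Sla2, the adaptor SLAP2 that brings CBL to the T cell receptor complex, read 2552, 1971 and 2562 on the arrays labelled double knockout, against 321, 368 and 401 on the wild type arrays. That is a ratio of 6.50 in mean intensity and a change of 2.63 (SE 0.23, limma adjusted p = 0.000125), although a second probe set gave 0.53 and was not called. Ndfip1, the membrane adaptor that activates ITCH and NEDD4, read 3095, 3313 and 2706 on the arrays labelled double knockout and 1080, 1109 and 1858 on the wild type arrays (change 1.19, SE 0.25, adjusted p = 0.0161). A second Ndfip1 probe set was also called, at 1.28, and the remaining one gave 0.65 and was not. Ubash3a, which encodes a CBL-binding protein of lymphocytes, rose by 1.00 (SE 0.23, adjusted p = 0.0267), the RING ligase gene Peli1 by 0.87 (SE 0.22, adjusted p = 0.0416) and the deubiquitinase gene Cyld by 0.86 (SE 0.23, adjusted p = 0.0469). Adjusted over probe sets instead of genes, the same Peli1 and Cyld probe sets were at 0.0533 and 0.0599. A second Cyld probe set (change 1.00, adjusted p = 0.0387) and a second Ubash3a probe set (change 1.32, adjusted p = 0.0197) were called there, and dimmer Peli1 probe sets, at 0.45 and -0.18, were not. Of 21 tested substrates and targets of the ligases, Cd81, a tetraspanin, rose by 1.08 (SE 0.24, adjusted p = 0.0199) and none fell (median 0.27).

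Other genes named in T cell anergy had 6 of 22 higher and none lower (median 0.59). This list also holds Egr3, given above, and Egr2, and neither was called. Egr2 had a change of 0.59 (SE 0.30, limma adjusted p = 0.29). The inhibitory receptor gene Pdcd1 read 3977, 5829 and 2704 on the arrays labelled double knockout, against 420, 718 and 538 on the wild type arrays, and rose by 2.81 (SE 0.31, limma adjusted p = 0.000528). Ctla4 rose by 1.89 (SE 0.30, adjusted p = 0.00424), the phosphatase gene Ptpn22 by 1.37 (SE 0.24, adjusted p = 0.00687), the adaptor gene Dok2 by 1.22 (SE 0.23, adjusted p = 0.0113) and the antiproliferative gene Tob1 by 1.19 (SE 0.23, adjusted p = 0.0114). Nr4a3, a nuclear receptor gene, rose by 1.55 on its brightest probe set (SE 0.27, adjusted p = 0.00712), while a dimmer one gave -0.91 and was not called. In the NDRG list, Sgk1, whose kinase phosphorylates NDRG1, was the 1 gene of 6 to pass, at 266, 288 and 302 on the arrays labelled double knockout and 68.9, 78.5 and 41.2 on the wild type arrays (change 1.95, SE 0.26, adjusted p = 0.00146). Marker lists of other cells also differed between the groups, beside that of mature T cells described with Dgka. Of the cytotoxic markers 3 of 5 tested rose, Nkg7 by 2.96, Klrd1 by 1.82 and Gzmb by 1.45. The sums overlapped (14266 to 15120 on the arrays labelled double knockout and 11350 to 16253 on the wild type arrays), but Gzma made up most of each sum. It read 10490 to 13000 on the arrays labelled double knockout and 10730 to 15850 on the wild type arrays (change -0.08). Ncr1 lay under the brightest control on all arrays. Of the B cell markers 1 of 6 tested rose (Cd79b), with sums of 2334 to 2871 on the arrays labelled double knockout and 1015 to 2003 on the wild type arrays. None of 5 double positive thymocyte markers passed the test, with sums of 7122 to 7248 on the arrays labelled double knockout and 5547 to 6713 on the wild type arrays. The part of such cells in the lists was not tested.

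Of the 15 calls in the lists, Sla2, Pdcd1, Ctla4 and Sgk1 were kept in each of the 6 fits that left out an array. The other 11 were lost when double knockout replicate 1 was left out (adjusted p between 0.0516 for Nr4a3 and 0.25 for Cyld), where 2.12% of all genes tested were called. Leaving out double knockout replicate 2 lost 8 (3.59% of all called) and double knockout replicate 3 lost 4 (3.63%). For the wild type arrays, 6 were lost with replicate 1 left out (3.93%), 5 with replicate 2 (3.99%) and 0 with replicate 3 (14.5%). Across these fits the number higher was 0 to 3 in the signalling list, 0 to 2 among the other ligases, 1 to 7 among partners and regulators, 0 to 3 among substrates and targets, 2 to 7 in the anergy list and 1 to 3 in the NDRG list. The highest of each came without wild type replicate 3. At most 2 genes of a list were called lower in any of these fits. Without wild type replicate 3 these were Prkcb (change -1.06), Cd3e (-2.01), Nrp1 (-1.11) and Egr3 (-0.98). With all 6 arrays, Cd3e (-1.59, limma adjusted p = 0.0765) and Nrp1 (-1.05, adjusted p = 0.0721) read lower and were not called.

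**Figure D4:**
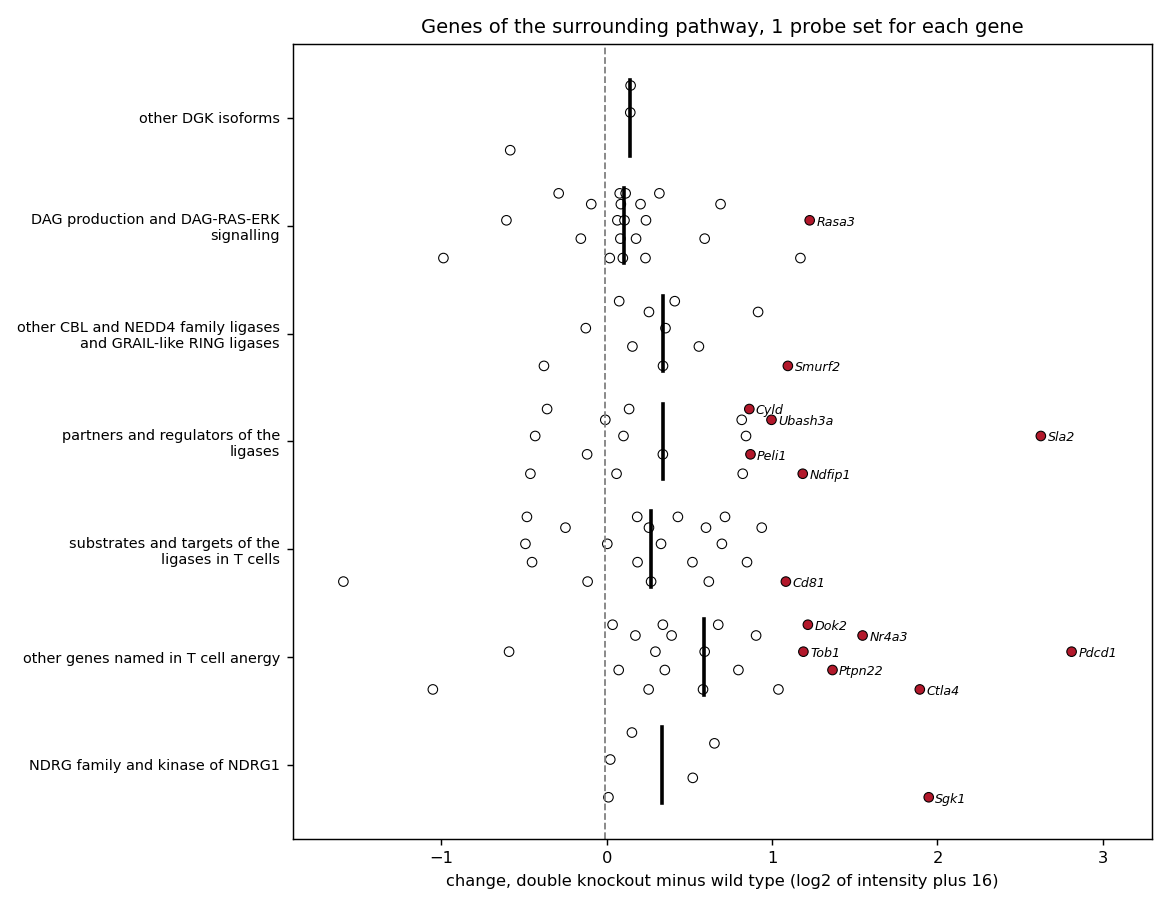
Change (arrays labelled double knockout minus wild type, log2 of intensity plus 16) of each tested gene in the 7 lists, 1 probe set for each gene, filled and named where called, with a black bar at the median of the list and a dashed line at the median of all genes tested (-0.01). Called genes lie to the right of 0, with Pdcd1 at 2.81 and Sla2 at 2.63 farthest out, and the vertical place of a point within its list carries no value.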

How the data were processed

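Per the labels, each of 6 single-colour arrays carries amplified RNA of 1 mouse. The deposited values are linear intensities, and the mean of their middle 96% is 150 on each array, which shows a scaling. No source used here names the scanner software. Probe sets were named through the platform annotation, where 34945 of 45037 have 1 gene symbol, 932 several and 9160 none here, with symbols updated through RefSeq (GRCm38.p6). Intensities plus 16 were log2 transformed, arrays were centred on their medians, and a mean at or above the 40th percentile was required, which is an intensity of 13.2. limma 3.58.1 (R 4.3.3; lmFit, eBayes with an intensity trend) compared the groups, with Benjamini-Hochberg adjustment over all probe sets, or over all genes for the lists. SE is the moderated standard error, and 95% intervals come from the same fit. The number of arrays limits the precision.

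The members, the gene lists and the tests were chosen with earlier results of these data known. Named are all members, Egr1 and Egr3 as the targeted genes and, from each list, up to 6 genes past the threshold by smallest p or otherwise the 2 of smallest p. Marker genes and genes touching a result were named beside it. Alternatives were values without centring, quantile normalization, other offsets and filters, no trend, arrays weighted by quality, a block for replicate number, leaving out each array, and gene-level values taken in other ways. Promoter sequences are from RefSeq.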

Additional observations from a re-analysis of the deposited data

How the results depend on the processing

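The count of called member probe sets was 1 under values without centring, quantile normalization, offsets of 1 and 64, no filter, a stricter filter (60th percentile), a fit with no trend and 1 probe set for each gene. With array weights it was 7, with 3417 of all probe sets and 33 list genes called, against 1358 and 15 with equal weights. With the replicate number as a block it was 0, with 573 of all probe sets and 6 list genes, and Dgka had an adjusted p of 0.0652. Deviations from the group means correlated at -0.05, -0.13 and -0.29 for same-numbered arrays and at -0.19 to 0.25 for the other combinations. With 3 arrays in each group these correlations depend on each other, so they cannot show whether the numbers pair the arrays. With each array left out in turn, the counts ran from 0 to 8 member probe sets, from 376 to 2744 of all probe sets and from 4 to 29 list genes. Over the 15 alternatives Dgka lay between 1.16 and 1.33 and was called in 12. The sign turned in 8 cases, none of them called: Dgkz 1452169_a_at was 0.037 with quantile normalization, 0.034 without wild type replicate 1 and 0.058 without double knockout replicate 2 (with each array left out, -0.237 to 0.058). Dgkz 1426738_at was 0.048 and 0.090 with wild type replicate 1 or 2 left out and 0.207 without double knockout replicate 2 (-0.384 to 0.207). Cbl 1455886_at was -0.127 without wild type replicate 3 (-0.127 to 0.875), and Ndrg1 1450977_s_at was -0.176 with array weights. The cause was not tested. Signal over background limits Rnf128, the dim probe sets of Rasgrp1 and Dgkd, and the 3 untested probe sets.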
